A study of Caenorhabditis elegans with 12 samples.

Results

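Transcript levels in Caenorhabditis elegans labelled as given RNAi against prp-19, a splicing factor gene, were compared directly with those in worms given RNAi against atp-2, a gene of the mitochondrial ATP synthase. The comparison used 6 of the 12 libraries of the series, chosen by their titles: 3 titled for prp-19 and 3 titled for the L4440 empty vector with atp-2. A further 3 libraries from worms on control RNAi (L4440 alone) gave control levels. Another 3, from worms given both RNAi treatments, entered the gene filter, the scaling factors and the estimate of spread, but none of the comparisons. All worms, controls included, carried glp-4(bn2), a temperature-sensitive allele that leaves worms without a proper germline when raised warm, and were collected whole on day 1 of adulthood. Nothing in the labels says whether the libraries of a group came from separate cultures, so p-values measure the spread between these libraries, which may be technical. The sources used here give neither the growth temperature nor the number of worms per library.

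PRP-19 is a ubiquitin ligase at the heart of the complex named after it, the Prp19 complex, which joins the spliceosome as it is activated and is needed for the removal of introns from most messenger RNAs. ATP-2 is the catalytic beta subunit of the ATP synthase, which makes ATP from the proton gradient of the respiratory chain. Loss of respiratory or ATP synthase subunits in worms sets off the mitochondrial unfolded protein response, in which the transcription factor ATFS-1 and several chromatin regulators raise the genes of mitochondrial chaperones, import channels and proteases. RNAi by feeding reaches most somatic tissues of the worm, so the libraries average over intestine, epidermis, muscle, neurons and pharynx.

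The targeted transcripts were examined first, in CPM, here read counts scaled to a common effective library size with TMM factors. The atp-2 gene (chromosome III, 5228417 to 5230536, WBcel235) had 267, 251 and 284 CPM in the atp-2 RNAi libraries, 1638, 1612 and 1612 CPM in the control libraries, while the prp-19-labelled libraries had 895, 973 and 1178 CPM. These 3 groups did not overlap, and the atp-2 transcript was lowest where its label places the RNAi. The prp-19 transcript (chromosome III, 5169933 to 5172045) had 84.2, 38 and 41 CPM in the prp-19-labelled libraries, 28, 27.9 and 27.6 CPM in the atp-2 RNAi libraries, and 27.1, 24.3 and 28.1 CPM in the control libraries. The prp-19 count was therefore higher, not lower, under its own label, so these libraries are referred to by their label (prp-19-labelled libraries), and every direction given below rests on that label. The log2 fold change of prp-19 over the atp-2 RNAi libraries was 0.97 (SE 0.357, adjusted p = 0.0457). The call was fragile. Without replicate 1 of the prp-19-labelled libraries the value was 0.49 (adjusted p = 0.154), and the call was also lost in the 6 libraries alone (adjusted p = 0.0624), with no filter (0.0892), without any 1 control library (0.0608 to 0.0628), without any 1 atp-2 RNAi library (0.0988 to 0.101) and without replicate 2 of the double RNAi (0.0617).

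Library totals were 7432951 to 8802767 counts in the atp-2 RNAi libraries and 6786918 to 8022673 in the prp-19-labelled libraries. Between replicates of atp-2 RNAi the chi-square of the counts per degree of freedom was 1.44 to 2.37, above the sampling noise of 1 library counted again. Within the prp-19-labelled libraries this value was 9.34 between replicates 1 and 2, and 43 and 23.8 between replicate 3 and replicates 1 and 2. Replicate 3 of the prp-19-labelled libraries thus stands apart from its group, and main results that change without it are given both ways.

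**Figure D1:**
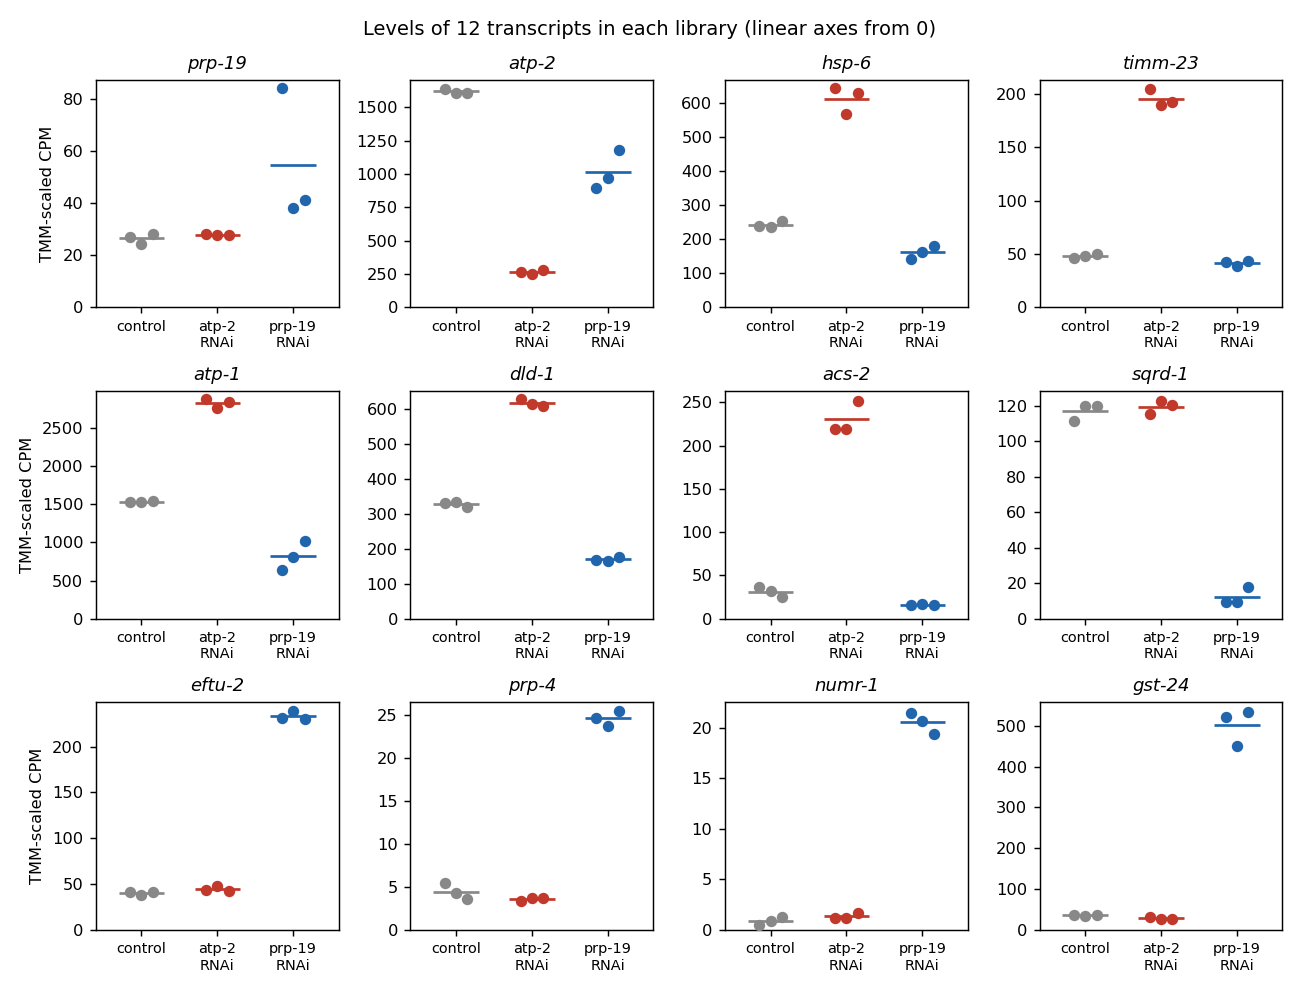
TMM-scaled CPM (linear axes from 0) of 12 transcripts in each library of control RNAi (grey), atp-2 RNAi (red) and the libraries labelled prp-19 RNAi (blue), with a line at the mean of 3 libraries. The atp-2 and prp-19-labelled libraries do not overlap for any of the 12 transcripts shown, which were picked from the genes named in the text. Of all 12850 genes tested, 3933 lay above and 3823 below in the prp-19-labelled libraries without overlap. The prp-19 transcript itself reaches 84.2 CPM in 1 library carrying its label.

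Of 12850 genes tested, 7211 (56.1%) differed between the libraries labelled prp-19 RNAi and the atp-2 RNAi libraries, by edgeR's quasi-likelihood test at a Benjamini-Hochberg adjusted p under 0.05 over all genes tested. Of these, 3700 were higher in the prp-19-labelled libraries (28.8% of genes tested) and 3511 were lower (27.3%). At least 2-fold differences were called for 2653 genes (20.6%), of which 1424 were higher (11.1%) and 1229 lower (9.56%). Over all genes tested the log2 fold change had a median of 0.05. The split into higher and lower depended on scaling: with library totals in place of TMM factors, 5064 genes were higher and 2392 lower, the median over all genes being 0.26. Small differences are therefore read relative to that shift. The shares of 28.8% higher and 27.3% lower are the background for list counts of this comparison with TMM factors, and a list near them does not stand apart from all genes. List counts with library totals are to be read against 5064 higher and 2392 lower of 12850. Counts against control have their own shares, given with those comparisons. Adjusted p-values below come from the same edgeR fit.

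Each RNAi was also set against the control libraries. The prp-19-labelled libraries differed from control at 7521 genes (58.5%), with 3859 higher (30%) and 3662 lower (28.5%). The atp-2 RNAi libraries differed from control at 4383 genes (34.1%), with 2182 higher (17%) and 2201 lower (17.1%). These 2 comparisons share the 3 control libraries, so their values are given side by side for each gene group and are not tested against each other. They were run with TMM factors only. The factors were 0.782 to 0.838 in the controls, 0.979 to 0.993 with atp-2 RNAi and 1.01 to 1.26 in the prp-19-labelled libraries. Small differences from control therefore rest on that scaling.

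Among the 10 genes furthest higher in the prp-19-labelled libraries were fat-7, col-183, F08G2.5, ilys-2, cnc-7 and pho-8. The stearoyl-CoA desaturase gene fat-7 (chromosome V, 7151353 to 7153146), which makes monounsaturated fatty acids, had 3 reads in all 3 atp-2 RNAi libraries together and 551 in the prp-19-labelled libraries. Its levels were 0.229, 0 and 0.136 CPM against 26.3, 24 and 13.4 CPM, a ratio of 176 (exact 95% interval of the summed counts 59.9 to 856, counting error only). Control libraries held 1.12, 1.78 and 0.53 CPM, between both groups. The cuticle collagen gene col-183 (chromosome X, 13466643 to 13467764) had 2.75, 1.66 and 1.91 CPM with atp-2 RNAi and 166, 154 and 149.9 CPM in the prp-19-labelled libraries, its log2 fold change being 6.20 (SE 0.176, adjusted p = 2.39e-14). Its exons overlap those of F02D10.10, and reads of such pairs may not be separable, since the sources used here do not state how strand was handled. The same holds for these other genes named below, whose exons overlap those of a neighbour in the annotation: atf-4, haf-1, isy-1, rsp-2, rsp-3, rsp-7, smg-2, smg-3, csr-1, eif-6, wars-1, sod-3, sod-4, pck-2, fat-5, nhr-193, prg-1, vit-2, vit-3, vit-4 and Y58A7A.4. Control libraries, with 35.2, 48.3 and 32.3 CPM, again lay between both groups.

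F08G2.5 (chromosome II, 13833095 to 13833631), a gene to which no role is given here, was among the most even: 738, 729 and 724 CPM in the prp-19-labelled libraries against 11.8, 10.3 and 12.7 CPM with atp-2 RNAi and 28.5 to 31.1 CPM in the controls. Its log2 fold change was 5.98 (SE 0.0944). The invertebrate lysozyme gene ilys-2, whose protein breaks bacterial cell walls, had 55.8, 53.5 and 70.2 CPM against 0.802, 1.54 and 0.819 CPM. The caenacin gene cnc-7, of a family of antimicrobial peptides, had 14.4, 13.7 and 23.2 CPM against 0.573, 0.712 and 0.273 CPM. The acid phosphatase family gene pho-8 had 81.5, 76.0 and 88.6 CPM against 2.75, 2.73 and 2.73 CPM. The other four of the 10 highest, C42D4.3, W04A4.2, Y58A7A.4 and F19B10.13, had log2 fold changes of 4.66 to 5.04. W04A4.2 had 63.8 to 86.6 CPM in controls, above both RNAi groups: its log2 fold change against control was -2.31 in the prp-19-labelled libraries and -7.14 with atp-2 RNAi.

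The 10 genes furthest lower in the prp-19-labelled libraries included 2 groups of neighbours. On chromosome IV, F56D6.9 (3892327 to 3893326), F56D6.8 (3894058 to 3894430) and dct-8 (3895070 to 3895506) lie side by side, with log2 fold changes of -6.61, -6.88 and -5.49. F56D6.8 had 35.5, 43.2 and 37.8 CPM with atp-2 RNAi, 0.352, 0.536 and 0 CPM in the prp-19-labelled libraries and 77.5 to 95.5 CPM in the controls. On chromosome V, D1086.9 (14104270 to 14106330) and H39E23.3 (14107811 to 14110051) are neighbours, at -5.14 and -6.70. H39E23.3 fell from 807, 786 and 867 CPM with atp-2 RNAi to 5.99, 8.04 and 9.77 CPM, with 1201, 1415 and 1392 CPM in the controls. All of these 5 genes were also lower than control with atp-2 RNAi, from -0.70 (H39E23.3) to -2.33 (dct-8). The fold change of D1086.9 rests on few reads and was -7.21 without replicate 2 of the prp-19-labelled libraries, and that of F56D6.8 was -7.59; the exons of F56D6.9 overlap those of oac-21.

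The other five lowest genes stood higher than control with atp-2 RNAi and lower than the atp-2 RNAi libraries under the prp-19 label. The cytochrome P450 gene cyp-14A4 had 27.3, 21.1 and 22.9 CPM with atp-2 RNAi, 0.47, 0.643 and 0.13 CPM in the prp-19-labelled libraries and 0.53 to 0.797 CPM in the controls. C09B8.4 had 27, 32.2 and 32.5 CPM with atp-2 RNAi against 0.47, 0.536 and 0.13 CPM. The remaining cdr-3, F58G6.9 and C23H5.8 had log2 fold changes of -5.73, -5.10 and -4.87, the last being -5.60 without replicate 3 of the prp-19-labelled libraries.

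**Figure D2:**
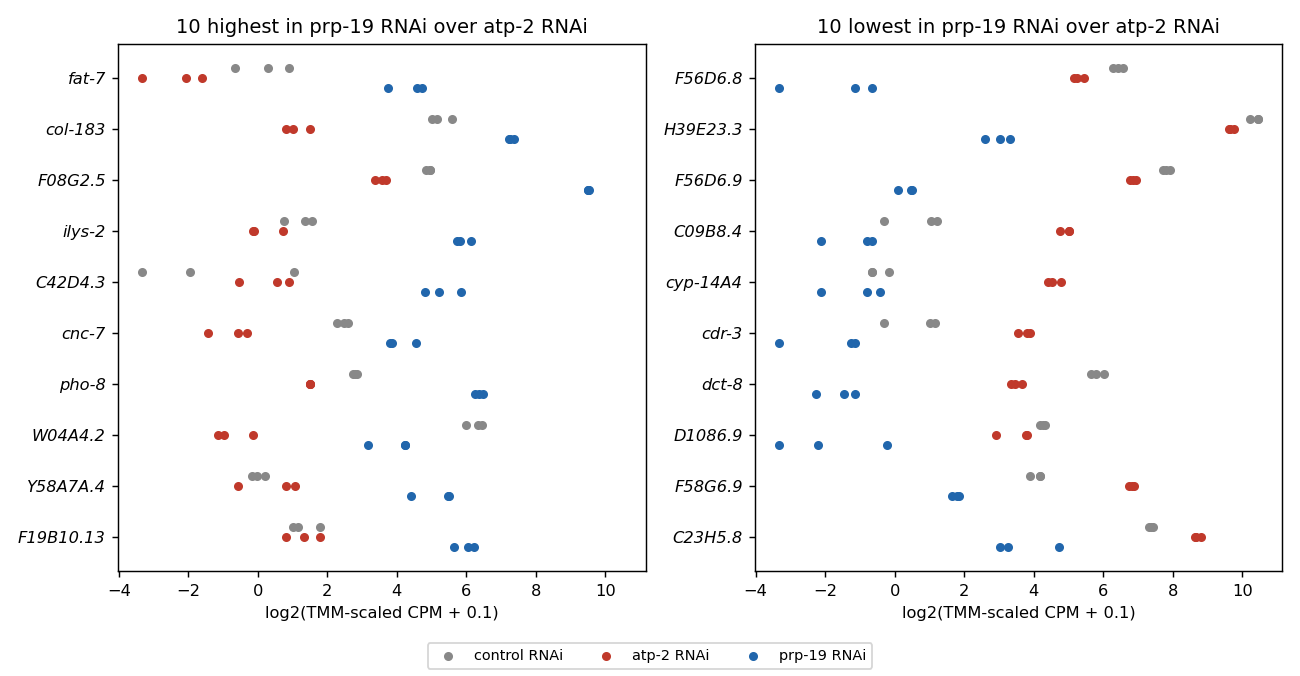
The 10 genes with the highest (left) and lowest (right) log2 fold change of the libraries labelled prp-19 RNAi over the atp-2 RNAi libraries; each point is 1 library on a log2(CPM + 0.1) axis, in grey for control, red for atp-2 RNAi and blue for prp-19 RNAi. Control libraries lie between both RNAi groups for fat-7 and col-183, and beside the prp-19-labelled libraries for cyp-14A4.

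The mitochondrial chaperone, protease and import genes, which carry the mitochondrial unfolded protein response, were lower in the prp-19-labelled libraries for 26 of 27 members, against 27.3% of all genes tested, with a list median log2 fold change of -1.24. The remaining member, the inner membrane peptidase gene immp-1, was not called. Against control, 24 of the 27 were higher with atp-2 RNAi (list median 0.96), while 1 was higher and 15 were lower in the prp-19-labelled libraries (list median -0.22). The latter depends on TMM scaling. As a summed share of all counts the list took 0.0901% to 0.108% in the prp-19-labelled libraries, overlapping the 0.0884% to 0.0911% of controls. With atp-2 RNAi that share was 0.239% to 0.258%. The hsp-6 gene (chromosome V, 4824124 to 4826760), which encodes the mitochondrial HSP70 and is the usual reporter of the response, had 642, 566 and 627 CPM with atp-2 RNAi, 142, 161 and 180.5 CPM in the prp-19-labelled libraries and 239, 234 and 253 CPM in the controls. The 3 groups did not overlap, and the direct log2 fold change was -1.92 (SE 0.0851, adjusted p = 6.83e-13). The chaperonin gene hsp-60 had 213, 194 and 197 CPM against 39.1, 39.1 and 59.5 CPM, a log2 fold change of -2.14.

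The inner membrane import channel gene timm-23 had 205, 189 and 193 CPM with atp-2 RNAi and 42.9, 38.7 and 43.6 CPM in the prp-19-labelled libraries, close to the control range of 46.1 to 50 CPM. Its direct log2 fold change was -2.23 (SE 0.076). The mitochondrial DnaJ gene dnj-10 was also at -2.23 and the matrix protease gene lonp-1 at -1.07. Regulators of the response differed less: 5 of 13 were higher and 4 lower (list median 0.20), or 7 and 2 with library totals (0.41). The ubiquitin-like factor gene ubl-5 was higher by 0.75, the chromatin factor gene lin-65 by 0.66 and the histone methyltransferase gene met-2 by 0.45. The peptide exporter gene haf-1 was lower at -0.89 and the transcription factor gene atf-4 at -0.59. The atfs-1 gene had 103.7, 112.7 and 111.6 CPM with atp-2 RNAi and 94.8, 105.4 and 75 CPM in the prp-19-labelled libraries (log2 fold change -0.25, adjusted p = 0.0357); with library totals it was -0.02 (adjusted p = 0.89), and without replicate 3 of the prp-19-labelled libraries -0.14 (adjusted p = 0.133).

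The respiratory chain and ATP synthase subunits were lower together in the prp-19-labelled libraries. All 30 nuclear-encoded complex I subunits tested were lower (list median -1.24), as were 20 of 21 subunits of complexes II, III and IV (-1.33), ucr-2.3 being the exception, and all 15 ATP synthase subunits tested other than atp-2 (-1.18). With library totals these counts were 29, 20 and 12. Against control, with TMM factors, the 2 treatments lay on opposite sides of 0. With atp-2 RNAi 29 complex I subunits, 19 of complexes II to IV and 13 ATP synthase subunits were higher, and in the prp-19-labelled libraries 26, 19 and 13 were lower. As a share of all counts, complex I overlapped between controls (0.266% to 0.296%) and prp-19-labelled libraries (0.249% to 0.292%), with 0.558% to 0.571% under atp-2 RNAi. Complexes II to IV did not overlap, at 0.434% to 0.480% in controls and 0.373% to 0.421% in the prp-19-labelled libraries. The alpha subunit gene atp-1, whose protein is the partner of ATP-2 in the catalytic head, had 2877, 2761 and 2841 CPM with atp-2 RNAi and 642, 804 and 1024 CPM in the prp-19-labelled libraries. Controls lay between, with 1526 to 1539.7 CPM, and the direct log2 fold change was -1.78 (SE 0.117, adjusted p = 2.51e-09). Y69A2AR.18, which encodes the gamma subunit, had 1318, 1334 and 1299 CPM against 356, 324 and 359 CPM.

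Examples from the other complexes were of a similar size. The complex I gene nuo-2 had 220.4, 219.9 and 212 CPM with atp-2 RNAi against 63.3, 61.6 and 69.7 CPM, a log2 fold change of -1.74. The complex III core gene ucr-1 was at -1.74 and the succinate dehydrogenase iron-sulfur gene sdhb-1 at -1.69. Mitochondrial ribosomal protein genes, which serve translation inside the organelle, were lower for 60 of 70 members and higher for 0 (46 and 1 with library totals). Their list median was smaller, at -0.68 (-0.47 with library totals). Here the prp-19-labelled libraries lay near control (6 of 70 higher and 8 lower, list median -0.06), while 58 of 70 were higher than control with atp-2 RNAi (0.66). The lowest, mrps-14, had 69.6, 63 and 58.5 CPM with atp-2 RNAi against 17.3, 15.9 and 19.4 CPM, and 15.4 to 22 CPM in the controls.

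Central carbon metabolism was lower as well, with lists near the respiratory chain in size. Pyruvate dehydrogenase, tricarboxylic acid cycle and glyoxylate shunt genes were lower for 23 of 24 members (list median -1.45), the exception being sucg-1, and glycolysis and gluconeogenesis genes for 19 of 20 (-1.23), the exception being gpd-1. The dihydrolipoamide dehydrogenase gene dld-1, whose enzyme is shared by several mitochondrial dehydrogenase complexes, had 628, 615 and 607 CPM with atp-2 RNAi, 169, 164 and 176 CPM in the prp-19-labelled libraries and 318 to 334 CPM in the controls. The glyoxylate shunt gene icl-1, by which worms turn fat into sugar, showed another pattern: 2567, 2599 and 2806 CPM with atp-2 RNAi, 2649.6, 2581 and 2773 CPM in the controls and 598, 771 and 875 CPM in the prp-19-labelled libraries. Its atp-2 RNAi and control libraries overlapped, and the direct log2 fold change of -1.83 (SE 0.102) is the same as that of the prp-19-labelled libraries over control. The glucose phosphate isomerase gene gpi-1 was at -1.79 and the gluconeogenic phosphoenolpyruvate carboxykinase gene pck-2 at -1.67.

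All 13 propionate breakdown genes, of the vitamin B12-dependent route and of the shunt used when that route is short, were lower (list median -1.51), and 10 of the 13 were higher than control with atp-2 RNAi. The shunt gene acdh-1, an acyl-CoA dehydrogenase, had 1199.6, 1463 and 1181 CPM with atp-2 RNAi, 123, 147 and 111 CPM in the controls and 3.99, 5.68 and 139 CPM in the prp-19-labelled libraries. Replicate 3 of the latter lay in the control range, far above the other two. The log2 fold change was -4.72 (SE 1.09, adjusted p = 0.00569), -8.05 without that library (adjusted p = 5.59e-10), and not called in the 6 libraries alone (adjusted p = 0.0689). The shunt genes hphd-1 and hach-1 were at -3.63 and -2.62. Of these, hphd-1 had 39.2, 39.5 and 91.9 CPM in the prp-19-labelled libraries against 659.7 to 749 CPM.

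Lipid genes differed in both directions. Among lipases and fatty acid oxidation genes 28 of 45 were lower and 11 higher (list median -0.48). With library totals 22 were lower and 12 higher (-0.26). The acyl-CoA synthetase gene acs-2, which feeds fatty acids into mitochondrial oxidation, had 219.6, 219.6 and 251 CPM with atp-2 RNAi and 16.21, 16.72 and 15.76 CPM in the prp-19-labelled libraries, with 24.6 to 36.7 CPM in the controls (log2 fold change -3.82, SE 0.113, adjusted p = 2.96e-15). In the other direction, the carnitine palmitoyltransferase family genes cpt-3 and cpt-5 were higher by 2.09 and 0.93; cpt-3 had 4.70, 4.39 and 5.32 CPM against 24, 25.7 and 11.07 CPM, its controls at 17.1 to 23.8 CPM. Of fatty acid desaturase, elongase and synthase genes 6 of 19 were higher and 10 lower (list median -0.35), or 6 and 5 with library totals. Besides fat-7, the delta-9 desaturase gene fat-5 was higher by 0.63, while the polyunsaturated fatty acid desaturase genes fat-4 and fat-3 were at -0.91 and -0.83. Folate transport and methionine cycle genes were higher for 1 and lower for 8 of 16 (5 and 6 with library totals). The folate transporter gene folt-2 had 272, 309 and 274 CPM with atp-2 RNAi against 25.4, 21.4 and 58.9 CPM, a log2 fold change of -3.03 (-3.62 without replicate 3 of the prp-19-labelled libraries).

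**Figure D3:**
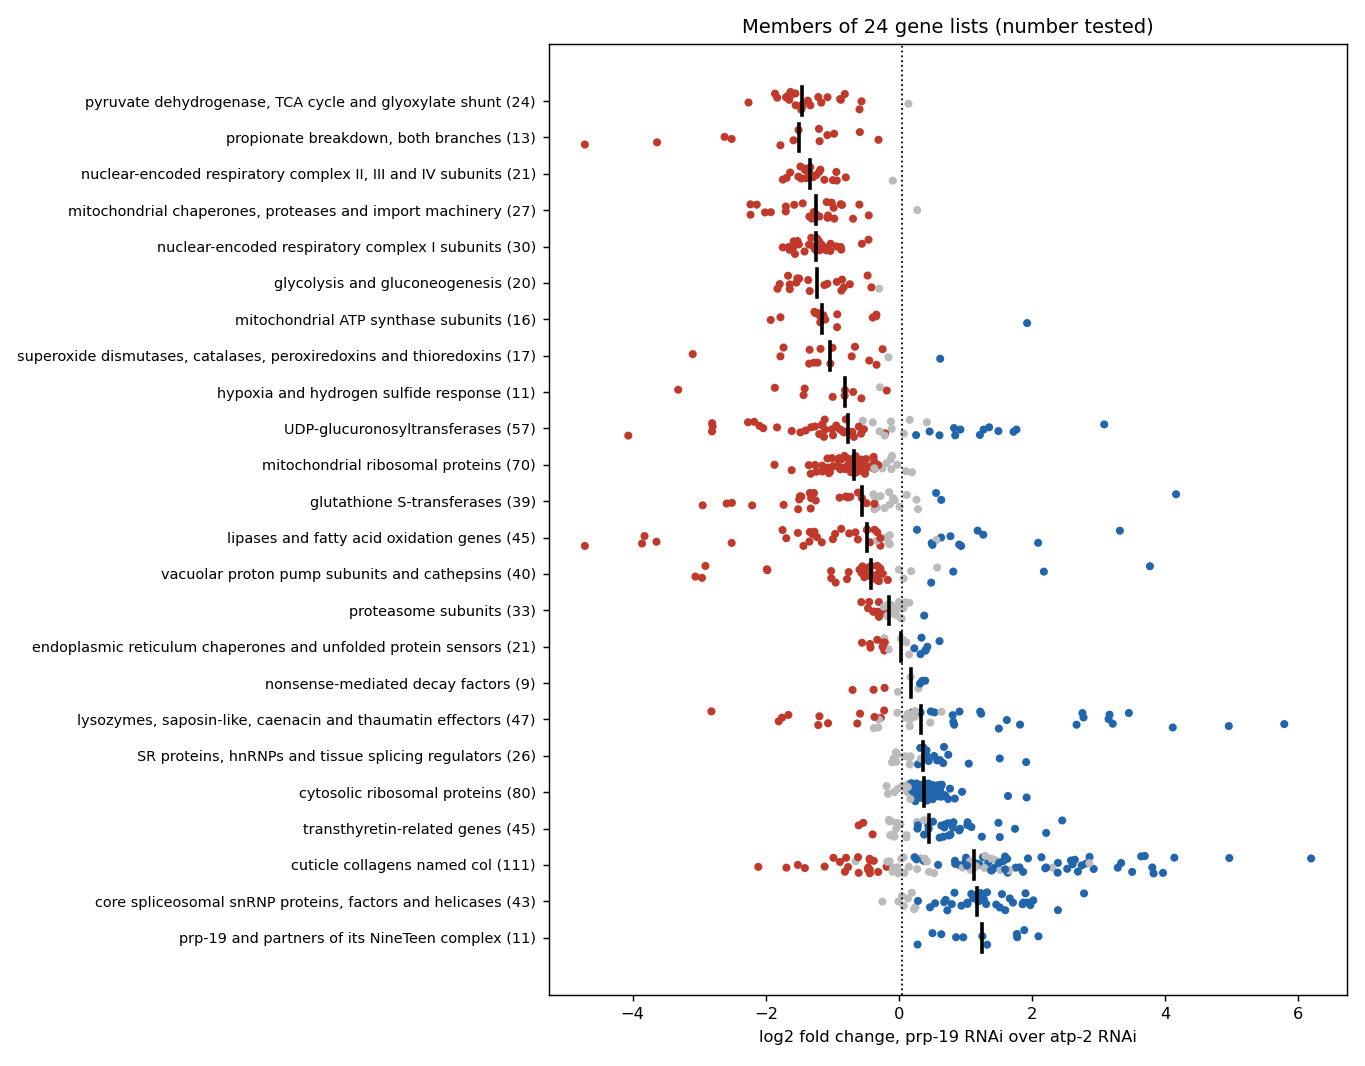
Log2 fold change of each tested member of 24 gene lists, libraries labelled prp-19 RNAi over atp-2 RNAi, with the number tested in brackets. Blue points are called higher and red points lower in the prp-19-labelled libraries, grey points are not called, black bars are list medians and the dotted line is the median of all 12850 genes. Mitochondrial and carbon metabolism lists lie left of 0, from a median of -1.51 for propionate breakdown, and the splicing lists lie right of it, at 1.17 and 1.25; the blue point among ATP synthase subunits is atp-2.

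Splicing genes lay on the other side. All 11 tested members of the Prp19 complex list, prp-19 included, were higher in the prp-19-labelled libraries than with atp-2 RNAi, against 28.8% of all genes tested (list median 1.25), and 35 of 43 core spliceosomal genes were higher and 0 lower (list median 1.17), 26 of them at least 2-fold. The 8 core genes not called were lsm-1, lsm-3, lsm-4, lsm-6, rnp-7, uaf-1, snu-23 and gut-2. Against control, all 11 and 35 of 43 were higher in the prp-19-labelled libraries (list medians 1.62 and 1.2), and 4 and 6 with atp-2 RNAi (0.27 and 0.08). The eftu-2 gene (chromosome III, 6009560 to 6012840), which encodes a GTPase of the U5 particle, had 231, 239 and 230.0 CPM in the prp-19-labelled libraries, 43.3, 47.5 and 42.6 CPM with atp-2 RNAi and 38.2 to 41.2 CPM in the controls. The direct log2 fold change was 2.39 (SE 0.0733, adjusted p = 4.24e-15). Germline and oocyte markers, of which 9 of 30 tested were higher (near the share of all genes) and 3 lower, took a larger share of counts in the prp-19-labelled libraries (0.0335% to 0.0433%) than with atp-2 RNAi (0.0217% to 0.0230%), and their part in the splicing lists was not tested.

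Other examples came from several steps of the splicing cycle. The spliceosomal gene prp-4 had 24.7, 23.7 and 25.4 CPM in the prp-19-labelled libraries against 3.32, 3.68 and 3.68 CPM. Its log2 fold change was 2.78, and its exons overlap those of C36B1.6. The tri-snRNP factor gene prp-31 was at 2.02 and the SR-related gene rsr-2 at 1.91. Among Prp19 complex partners isy-1 was at 2.1, syf-1 at 1.88 and plrg-1, which encodes a WD-repeat protein, at 1.78; syf-1 had 86.8, 88.8 and 74.7 CPM against 24.3, 22.4 and 21 CPM.

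SR proteins, hnRNPs and tissue splicing regulators, which choose splice sites, were higher for 16 of 26 members and lower for 0, with a smaller list median of 0.37. The SR protein genes rsp-7 and rsp-3 were higher by 1.52 and 1.05, whereas rsp-2 had 51.2, 51.6 and 54 CPM in the prp-19-labelled libraries and 51.1, 49.7 and 46 CPM with atp-2 RNAi (log2 fold change 0.09, adjusted p = 0.307; 0.31 and called with library totals). Nonsense-mediated decay factors, which remove transcripts with early stop codons, were split 3 higher and 3 lower of 9: the kinase gene smg-1 was at -0.70, smg-2 at -0.38 and smg-3 at -0.22, and smg-7, smg-4 and smg-8 at 0.40, 0.35 and 0.32. The call of smg-1 was kept under every alternative run, and the other calls were weak. With library totals smg-2 and smg-3 were lost. With DESeq2 smg-3 (adjusted p = 0.0621), smg-7 (0.076), smg-4 (0.061) and smg-8 (0.056) were lost. RNA interference factors were likewise split, 8 higher and 9 lower of 36 (13 and 3 with library totals). The Argonaute genes sago-2 and ppw-1 were higher by 1.99 and 1.47, and both were lower than control with atp-2 RNAi (-0.99 and -0.61) and higher than control in the prp-19-labelled libraries (1.00 and 0.86). The Argonaute gene csr-1, with 143, 136 and 149.7 CPM against 53.9, 74.8 and 82.7 CPM, was at -1.02.

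Since most introns are removed by the spliceosome that PRP-19 serves, protein-coding genes were described by the number of introns in their longest transcript. The median log2 fold change was 0.04 for 167 genes without introns, 0.09 for 2383 genes with 1 to 2, 0.08 for 4325 genes with 3 to 5, 0.06 for 3827 genes with 6 to 10, and -0.05 for 1522 genes with over 10. In the class with over 10 introns 21.8% were higher and 29.7% lower, against 30.5% and 28.1% without introns. Split at the median of mean CPM, the lower share turned around: 16.7% against 20% among weakly expressed genes and 37.2% against 43.9% among strongly expressed genes. The higher share was smaller with over 10 introns at both levels, at 21.1% against 24.5% and 22.2% against 42.1%. The class without introns held only 110 weakly and 57 strongly expressed genes. In the larger classes between, the higher share was 28.5% to 29.2% among weakly and 29.3% to 36.1% among strongly expressed genes. These counts sum reads over whole genes and do not measure retained introns or splice choice.

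Cytosolic ribosomal protein genes were higher for 67 of 80 members and lower for 0, with a list median of 0.38; against control 54 were higher and 1 lower in the prp-19-labelled libraries, and 3 higher and 20 lower with atp-2 RNAi. Most differences were small, and 2 exceeded 2-fold: rpl-11.1, with 169.9, 154 and 153 CPM against 43.2, 41.0 and 41.9 CPM (log2 fold change 1.92), and rpl-24.2, at 1.64. Both have close relatives in the genome, so reads may be shared between copies. Without replicate 3 of the prp-19-labelled libraries 67 were higher and 3 lower. Translation factor genes were higher for 13 and lower for 8 of 38 (21 and 1 with library totals), with eif-6, whose protein keeps ribosomal subunits apart, highest at 1.03.

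Aminoacyl-tRNA synthetase genes were lower for 19 of 32 and higher for 7 (13 lower and 10 higher with library totals). Those with the suffix 2, given in worms mostly to mitochondrial enzymes, were lower for 9 of 11 (list median -0.87), and those with another suffix were lower for 10 and higher for 6 of 21 (-0.14); this split was chosen after the values were seen. The leucyl enzyme gene lars-1 had 427, 407 and 433 CPM with atp-2 RNAi, 184, 190.0 and 182 CPM in the prp-19-labelled libraries and 116 to 142 CPM in the controls, a direct log2 fold change of -1.19. The asparaginyl and tryptophanyl enzyme genes nars-1 and wars-1 were higher by 1.28 and 1.07.

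Genes of oxidative defence were lower in the prp-19-labelled libraries for 15 of 17 members (list median -1.03). The mitochondrial manganese superoxide dismutase gene sod-3, a target of the transcription factor DAF-16, had 415, 412 and 408 CPM with atp-2 RNAi, 157 to 185 CPM in the controls and 40.8, 43.5 and 60.2 CPM in the prp-19-labelled libraries (log2 fold change -3.1, SE 0.117). The mitochondrial peroxiredoxin gene prdx-3 was at -1.73, and sod-4, for an extracellular copper-zinc enzyme, was the member that was higher (0.62). Hypoxia and hydrogen sulfide response genes were lower for 10 of 11. The sulfide:quinone oxidoreductase gene sqrd-1, which clears hydrogen sulfide, had 115.2, 122.8 and 120.5 CPM with atp-2 RNAi, 111.3 to 120 CPM in the controls and 9.28, 9.33 and 17.8 CPM in the prp-19-labelled libraries (log2 fold change -3.32). As with icl-1, its atp-2 RNAi and control libraries overlapped.

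Detoxification families held large differences in both directions. Glutathione S-transferase genes were lower for 22 of 39 and higher for 3. The gst-4 gene, a standard reporter of the SKN-1 stress response, had 234, 239.6 and 232 CPM with atp-2 RNAi, 149 to 172 CPM in the controls and 34.7, 37.8 and 44.9 CPM in the prp-19-labelled libraries (log2 fold change -2.59, SE 0.0929, adjusted p = 3.87e-14); its exons overlap those of dhs-12. In contrast gst-24 had 31.2, 25.2 and 27.3 CPM with atp-2 RNAi, 33.2 to 37.2 CPM in the controls and 521, 449 and 533 CPM in the prp-19-labelled libraries, so that its log2 fold change was 4.17 (SE 0.0975). Cytochrome P450 genes were lower for 26 and higher for 12 of 59 (22 and 20 with library totals). Within a single subfamily cyp-14A4 and cyp-14A1 were at -5.74 and -4.34 and cyp-14A5 was higher by 3.04. UDP-glucuronosyltransferase genes were lower for 35 and higher for 13 of 57, led by ugt-62, with 965, 881 and 925 CPM against 54.2, 55.5 and 55.6 CPM (log2 fold change -4.07).

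Metal response and iron storage genes were split 4 higher and 5 lower of 12, against 28.8% and 27.3% of all genes. With library totals 4 were higher and 4 lower, and the list median turned from -0.18 to 0.04. The nuclear RNA-binding gene numr-1, known to be induced by cadmium and by disturbed RNA processing in worms, had 21.5, 20.7 and 19.4 CPM in the prp-19-labelled libraries, 1.15, 1.19 and 1.64 CPM with atp-2 RNAi and 0.478 to 1.24 CPM in the controls, and its log2 fold change was 3.96 (SE 0.175, adjusted p = 6.83e-13). The metallothionein gene mtl-1 was at -2.98 and the ferritin gene ftn-1 at -2.16; both were lower than control in the prp-19-labelled libraries (-3.96 and -2.67).

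Compartments other than the mitochondrion gave smaller protein-folding differences. Endoplasmic reticulum chaperone and sensor genes were higher for 7 and lower for 8 of 21, or higher for 11 and lower for 1 with library totals; the HSP70 gene hsp-4 of that compartment had 110.3, 108 and 110.3 CPM with atp-2 RNAi and 136, 147 and 158 CPM in the prp-19-labelled libraries (log2 fold change 0.43). Cytosolic heat shock genes were higher for 3 and lower for 7 of 25, and lower for 17 without replicate 3 of the prp-19-labelled libraries; with library totals 5 were higher and 4 lower. The hsp-70 gene had 26.6, 25.6 and 137 CPM in those libraries against 228, 215 and 214 CPM (log2 fold change -1.81, adjusted p = 0.0252, and -3.08 without replicate 3), and its call was lost in the 6 libraries alone (adjusted p = 0.125). The small heat shock gene hsp-16.2 was not called (-0.97, adjusted p = 0.0934) but was at -1.83 (adjusted p = 1.25e-07) without replicate 3, and hsp-43 was higher by 1.37. Proteasome subunit genes were lower for 11 and higher for 1 of 33, which turned to 2 lower and 6 higher with library totals. Autophagy genes were split 5 and 5 of 23 (6 higher and 2 lower with library totals). Vacuolar proton pump and cathepsin genes were lower for 31 of 40 and higher for 4, or 19 and 8 with library totals. The cathepsin B family split widely: cpr-5 had 498, 463 and 476 CPM with atp-2 RNAi against 56, 54.9 and 81 CPM (-2.91), and cpr-1 had 41.8, 44.5 and 41.6 CPM against 546, 510.3 and 693 CPM (3.77).

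Cuticle and defence lists held genes that were higher and genes that were lower. Of 111 cuticle collagen genes tested, 57 were higher and 21 lower, with a list median of 1.13. Weakly expressed collagens carried this: of 82 with a mean under 100 CPM over the 6 libraries 49 were higher and 4 lower, while of 29 at 100 CPM or more 8 were higher and 17 lower, a split chosen after the values were seen. The summed collagen share of counts was 9.17% to 9.52% with atp-2 RNAi and 7.66% to 8.50% in the prp-19-labelled libraries, without overlap (exact two-sided permutation p = 0.1, the smallest that 3 against 3 libraries can give). Thus col-180 had 4.70, 3.92 and 4.64 CPM with atp-2 RNAi against 89.6, 79.8 and 64.5 CPM, and the abundant col-101 had 8149, 8449 and 8032 CPM against 3086, 3123 and 3037 CPM. Moulting and apical matrix genes were higher for 8 and lower for 4 of 33, a share of higher genes below the 28.8% of all genes, with the moulting receptor gene nhr-23 at 1.46. Hedgehog-related and patched-related genes were higher for 19 and lower for 12 of 51, grl-21 being highest at 4.24 from few reads (3.62 and 5.18 without atp-2 RNAi replicates 1 and 2).

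Lysozyme, saposin-like, caenacin and thaumatin effector genes were higher for 23 and lower for 12 of 47 (list median 0.33). With ilys-2 and cnc-7 above, ilys-3 was higher by 4.12, and the immune response gene irg-4 and the saposin-like gene spp-8 were at -2.82 and -1.81. The neuropeptide list was higher for 22 and lower for 4 of 98, below the 28.8% of all genes called higher. Without replicate 3 of the prp-19-labelled libraries 32 were higher, against 3746 of all 12850 genes. With library totals 42 were higher, against 5064 of 12850. Its leaders nlp-34 (log2 fold change 4.62), nlp-31 (3.16) and nlp-29 (2.73) encode epidermal antimicrobial peptides and lie together on chromosome V, nlp-34 at 3978825 to 3979134, nlp-31 at 3980055 to 3980622 and nlp-29 at 3984425 to 3984847. The nlp-29 gene, induced in worms by wounding and fungal infection, had 79.5, 68.1 and 64.6 CPM in the prp-19-labelled libraries, 11.8, 10.4 and 9.69 CPM with atp-2 RNAi and 18.6 to 24 CPM in the controls. Insulin-like peptide genes were higher for 2 and lower for 0 of 20.

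C-type lectin genes were higher for 30 and lower for 38 of 95, and for 42 and 31 with library totals. The clec-17 gene had 89.9, 80.1 and 81.9 CPM with atp-2 RNAi, 7.52, 5.79 and 5.60 CPM in the prp-19-labelled libraries and 2.84 to 4.24 CPM in the controls, a log2 fold change of -3.73. The pals family was higher for 8 and lower for 3 of 21, F-box genes for 37 and 13 of 109, transthyretin-related genes for 27 and 3 of 45, and abu and pqn genes for 20 and 4 of 48. The F-box gene fbxa-163 had 10.54, 12.35 and 10.37 CPM with atp-2 RNAi against 92.0, 83.9 and 90.8 CPM (log2 fold change 3.0). Nuclear hormone receptor genes were higher for 40 and lower for 47 of 175, not above the 28.8% and 27.3% of all genes, with nhr-154 higher by 1.76 and nhr-193 lower at -2.38. With library totals the counts were 59 and 33, to be read against 5064 and 2392 of all 12850 genes.

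**Figure D4:**
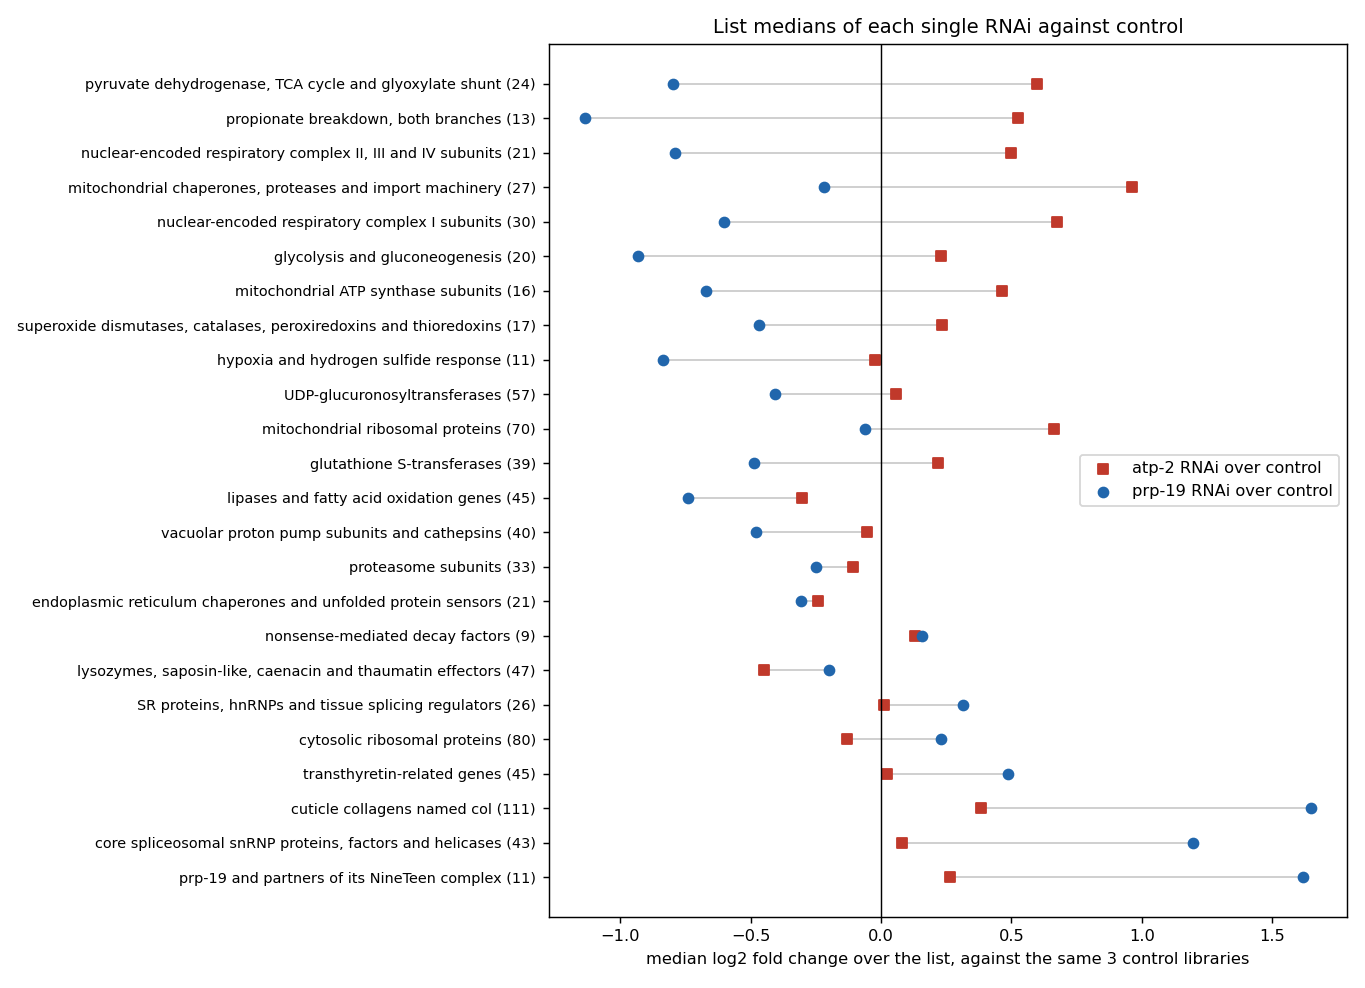
Median log2 fold change of 24 gene lists (number tested in brackets) for atp-2 RNAi over control (red squares) and the libraries labelled prp-19 RNAi over control (blue circles). Both use the same 3 control libraries and TMM factors, on which the position relative to 0 depends. The tricarboxylic acid cycle list has medians of 0.60 and -0.80, mitochondrial ribosomal proteins 0.66 and -0.06, and core spliceosomal genes 0.08 and 1.2.

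The vitellogenins, yolk proteins made in the intestine, took a large part of all counts and varied within the prp-19-labelled libraries. Their share of counts was 6.85%, 10.4% and 17.7% in the prp-19-labelled libraries, 11.7%, 12.5% and 12% with atp-2 RNAi and 21.9% to 25.7% in the controls (exact two-sided permutation p = 1.0 between both RNAi groups). Of the 6 genes vit-3 and vit-4 were higher in the prp-19-labelled libraries, by 1.87 and 1.53 (1.25 and 0.91 without replicate 3), and none was lower; without replicate 3, 3 of the 6 were lower. The vit-2 gene had 16419, 26589.6 and 56475 CPM in those libraries and 52947 to 56020.1 CPM with atp-2 RNAi, and was not called (-0.71, adjusted p = 0.142), but it was at -1.35 (adjusted p = 0.000656) without replicate 3. The vitellogenin genes resemble each other in sequence, so reads may be split between them.

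Markers of the worm's tissues were read as a check on composition; in these whole-worm libraries fewer cells of a type and less RNA per cell cannot be told apart. Body wall muscle markers were lower for 4 and higher for 0 of 19, neuron markers for 3 and 0 of 17, and ciliary genes for 2 and 0 of 26, with list medians of -0.14, 0.01 and -0.06; with library totals the counts lower and higher were 2 and 2, 1 and 6, and 0 and 5. Without replicate 3 of the prp-19-labelled libraries 4 neuron markers were higher and 3 lower. Intestine markers were higher for 6 and lower for 5 of 13 (4 and 6 without that library), the apical proton pump gene vha-6 being lowest at -1.98. Hypodermis markers were higher for 3 and lower for 1 of 11, and pharynx markers for 2 and 0 of 6. Sperm and nematode-specific peptide genes were higher for 5 and lower for 13 of 28, or 6 and 7 with library totals. Histone genes were higher for 3 and lower for 2 of 11, and their list median turned from -0.07 to 0.15 with library totals.

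Germline and oocyte markers were higher for 9 and lower for 3 of 30 tested, a share of higher genes near the 28.8% of all genes. Their summed share of counts over 38 markers was 0.00818% to 0.0110% in the controls, 0.0217% to 0.0230% with atp-2 RNAi and 0.0335% to 0.0433% in the prp-19-labelled libraries, and the 3 groups did not overlap; none of the 38 was at 0 in all libraries. The translational repressor gene gld-1 had 12.8, 19.6 and 15.6 CPM in the prp-19-labelled libraries against 4.58, 4.04 and 3.14 CPM, and the germ granule helicase gene glh-1 had 150.5, 154 and 127 CPM against 47.2, 47.1 and 46.7 CPM. The piRNA Argonaute gene prg-1 went the other way, with 72.8, 77.2 and 70.5 CPM against 102, 92.0 and 99.2 CPM (-0.41, not called with library totals), and both groups exceeded the control range of 22.5 to 31.7 CPM.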

How the data were processed

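Whole worms of 4 groups with 3 libraries each were profiled by polyA-selected mRNA sequencing, per the labels' protocols, and groups came from the sample titles. The authors deposited 1 table of raw read counts for 45132 genes, of which 45044 matched the Ensembl release 115 annotation of WBcel235, used for gene class, introns, exon overlaps and coordinates. The submitters' processing notes name FastQC, STAR 2.7.5c, HISAT2 2.1.0, R 4.0.5, DESeq2 and the builds ce11 and WBcel235, without roles. The sources used here name no counting program, annotation or strand setting, which decide how reads of overlapping and near-identical genes were assigned.

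The test was that of edgeR 4.0.16 under R 4.3.3: filterByExpr by group (12850 genes kept of 25748 with a read), TMM factors (0.782 to 1.26), 1 coefficient per group over 12 libraries, robust glmQLFit and glmQLFTest, with 8 residual degrees of freedom. The contrast was prp-19 RNAi minus atp-2 RNAi, with Benjamini-Hochberg adjustment over all genes and a threshold of 0.05. The SE was taken as the size of the log2 fold change over the square root of F. The method was tested on simulated data. Library totals were 6731808 to 8802767 counts, and intervals cover counting error only.

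The 53 gene lists, their members and the tests were chosen with earlier results of these data known, so lists are described by counts and medians with no set test. Genes are named by a rule: both targets, the 10 highest and 10 lowest protein-coding genes called at a mean of at least 5 CPM without overlap, up to 3 called members of each list at either end at that level, and 10 stress, yolk and splicing genes whatever their values. Alternatives were RLE or total scaling, totals outside the vitellogenins, DESeq2 1.42.0, no filter, 6 libraries alone, a replicate block and leaving out each library. Replicate numbers were not used to pair the libraries in the main fit. Sequences are not used here.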

Additional observations from a re-analysis of the deposited data

How the results depend on the processing

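Against 7211 genes called (3700 higher, 3511 lower, 2653 at least 2-fold), RLE factors gave 7185, DESeq2 6506, no filter 7876 of 25748 genes, and the 6 libraries alone 6699. Leaving out each library in turn gave 6484 (without atp-2 RNAi replicate 2) to 7493 (without prp-19 RNAi replicate 3) calls, 3273 to 3746 higher, 3211 to 3747 lower and 2563 to 2849 at least 2-fold. Without prp-19 RNAi replicate 3, 6833 of the 7211 calls (94.8%) were shared. Genes called both ways kept their direction under every alternative run. Total scaling moved the share of higher calls from 51.3% to 67.9%, and to 67.8% outside the vitellogenins (5271 higher, 2508 lower). The replicate block gave 7168 calls, of which 7065 were shared. Deviations from the group means correlated at 0.0013, -0.012 and -0.042 between same-numbered libraries of the compared groups. Such values cannot decide whether same-numbered libraries were grown or prepared together. Of 261 named genes, 221 kept their direction and side of the threshold under all 19 alternatives. Over the other 40, 159 combinations of a gene and an alternative lost the call and 4 gained it. Depth limits genes of a few reads, such as fat-7 and D1086.9. The cause of these shifts was not tested.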

Other observations

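Gene families outside the lists were scanned after the values were seen, over the 83 families of a shared symbol prefix with at least 10 tested members that lie mostly outside the lists, and the counts below are descriptions with no test, to be read against 28.8% of all genes called higher and 27.3% called lower. Among families higher in the libraries labelled prp-19 RNAi, nucleoporin genes (npp), whose proteins build the nuclear pore, were higher for 21 of 25 members and lower for 1, with a median log2 fold change of 1.04. Integrator subunit genes (ints), whose complex ends transcription of small nuclear RNA genes, were higher for 9 and lower for 2 of 11 (median 0.92). RNA polymerase II subunit genes (rpb) were higher for 9 and lower for 0 of 11 (0.76), RNA-binding motif genes (rbm) for 8 and 0 of 13 (0.60), and the fipr family for 7 and 1 of 11 (1.09). The medians against control were 1.12, 1.37 and 0.89 for npp, ints and rpb in the prp-19-labelled libraries and 0.04, 0.19 and 0.01 with atp-2 RNAi, against the same control libraries.

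In the other direction, aldehyde dehydrogenase genes (alh), which oxidise aldehydes to acids, were lower for all 13 members (median -0.96), 1 of which is also in a list above. Solute carrier genes (slc) were lower for 19 and higher for 4 of 29 (-0.59), carboxylesterase genes (cest) for 19 and 6 of 30 (-0.48), and math genes for 11 and 3 of 20 (-0.54).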
